A study of Rattus norvegicus with 20 samples.

Results

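The genes described here are 42 genes of presynaptic vesicle release and recycling, out of 33091 genes tested, measured in rat cortical neurons during axonal sprouting after stroke. They were chosen by gene name: every spot whose gene name or description on the array was one of the 42 names was taken, and the brightest probe stood for a gene. All 42 were found, on 50 probes, and were measured in all 10 animals. The sprouting neurons labelled day 21 were compared with the non-sprouting neurons of the same day. The sprouting neurons labelled day 7 were compared with the non-sprouting neurons of day 7. The names of the cell types are those of the labels. Each day had 5 rats, all aged 2 months and all with a stroke, and the days were separate cohorts; animals without a stroke were not analysed here. Neurons had been marked by a first and a second cholera toxin B tracer placed at the same site of peri-infarct cortex. About 300 neurons of each cell type were laser-captured 7 days after the second tracer. Whether days 7 and 21 run to the second tracer or to the capture is not settled here. The time from stroke to capture may therefore be longer than the labelled day. The RNA of so few cells was amplified in 2 rounds, and sprouting and non-sprouting RNA of an animal were hybridised together on 2 arrays with the dyes exchanged. The value used throughout is the log2 ratio of sprouting over non-sprouting signal. It was averaged over an animal's 2 arrays, or taken from 1 where the other gave no value. A positive value is higher in sprouting neurons, and 1 unit is a 2-fold difference. In captured pools, fewer cells of a type and less RNA per cell cannot be told apart.

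A synaptic vesicle is filled with transmitter by a transporter in its membrane, held in reserve by synapsins, docked and primed at the active zone, and fused by the SNARE proteins when calcium binds synaptotagmin. Complexins hold the SNARE complex ready, NSF and its SNAP adaptors take it apart after fusion, and the membrane is retrieved by endocytosis. Many but not all of these genes are active in most neurons of adult cortex. In growing axons the same fusion and retrieval proteins also take part in adding and recycling membrane.

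No member passed the test across all genes. With limma and Benjamini-Hochberg adjustment over the 33091 genes, the smallest adjusted p of a member was 0.837 at day 21 and 0.327 at day 7, and it was 0.394 for the mean of both days. Over all genes, 0 passed an adjusted p of 0.05 at day 21 and 1 at day 7 (percent called, 0 and 0.00302), so the members' count of 0 stands beside almost no calls at all. The members are therefore described at an unadjusted p under 0.05, always beside the share of all genes that reached it. Both days shared 1 estimate of the spread in these fits, so the p of a day does not rest on its own SD alone. At day 21, 1 of 42 members reached it (2.38%), against 5.85% of all genes; it was higher in sprouting neurons (background 3.47% higher, 2.38% lower). At day 7, 11 of 42 reached it (26.2%), against 9.48% of all genes. Of these 11, 9 were higher in sprouting neurons (background 4.48%) and 2 were lower (background 5%). For the mean of both days 11 of 42 reached it (26.2%, background 11%), 10 higher and 1 lower (backgrounds 5.63% and 5.41%). The median member ratio was 0.010 at day 21 and 0.035 at day 7, with 23 and 28 of 42 members above 0. Over all genes the median was -0.001 at day 21 and -0.005 at day 7, with 49% and 46.5% above 0. Members lay on both sides of 0. The median distance of a member's mean from 0, whatever its sign, was 0.05 at day 21 and 0.11 at day 7. Over all genes it was 0.04 and 0.05.

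**Figure D1:**
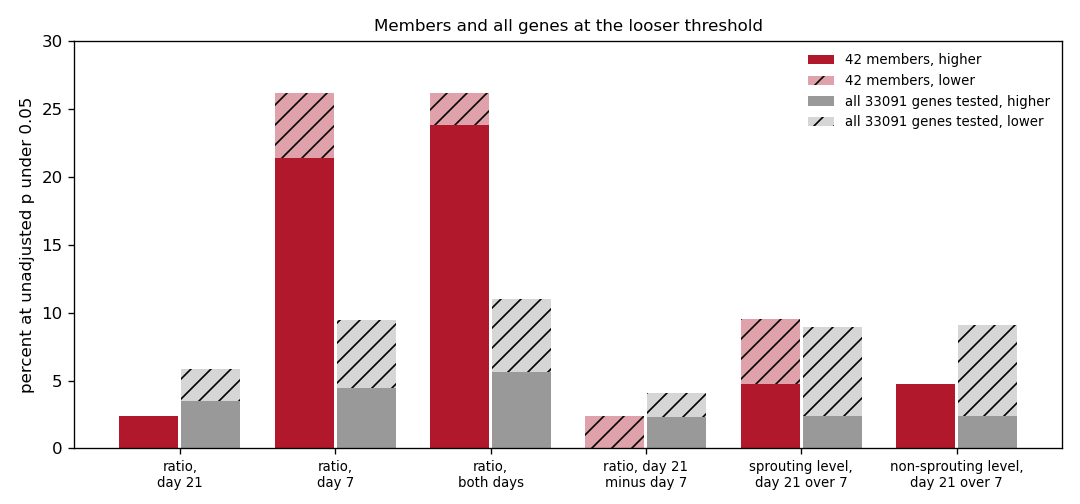
Percent of the 42 members (red, left bar of each pair) and of all 33091 genes tested (grey, right bar) with an unadjusted limma p under 0.05, for 6 comparisons; solid parts are higher and hatched parts lower. The members' bar stands at 26.2% for the day 7 ratio and for both days together, and at 2.38% for the day 21 ratio.

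The animals differed among themselves, and this bears on every ratio that follows. At day 21 the median over members was -0.013, 0.049, -0.006, 0.008 and 0.004 in replicates 1 to 5, and at day 7 it was -0.007, -0.027, 0.147, -0.001 and 0.003. The day 7 replicate 3 stood apart, with 34 of 42 members higher in its sprouting neurons, where the other 9 animals had between 18 and 31. Without it the day 7 median was 0.009 in place of 0.035 and 9 members had a p under 0.05 in place of 11, of which 7 were among the 11; Syn2, Vamp1, Napb and Bsn were not. Of the 11, Amph, Sncb, Cplx1, Syt7 and Nsf stayed under 0.05 at day 7 whichever animal was left out. Sncb did not stay under it with the processed signals or with median centring. Amph, Cplx1, Syt7 and Nsf were not well above background on every array, so the stricter background filter left them out. Day 21 replicate 4 went against its own repeat: its dye-exchanged arrays correlated at -0.36 over all genes and -0.41 over the members, where the other animals had 0.33 to 0.73 and 0.60 to 0.92. Its averaged ratios were therefore close to 0 throughout (SD over all genes 0.065, against 0.155 to 0.239 in the others), and its direction is not settled. Without it the day 21 median was 0.006, and Napb stayed the only member under 0.05 at day 21, as it did with either of the arrays turned, an alternative chosen after the data were seen.

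**Figure D2:**
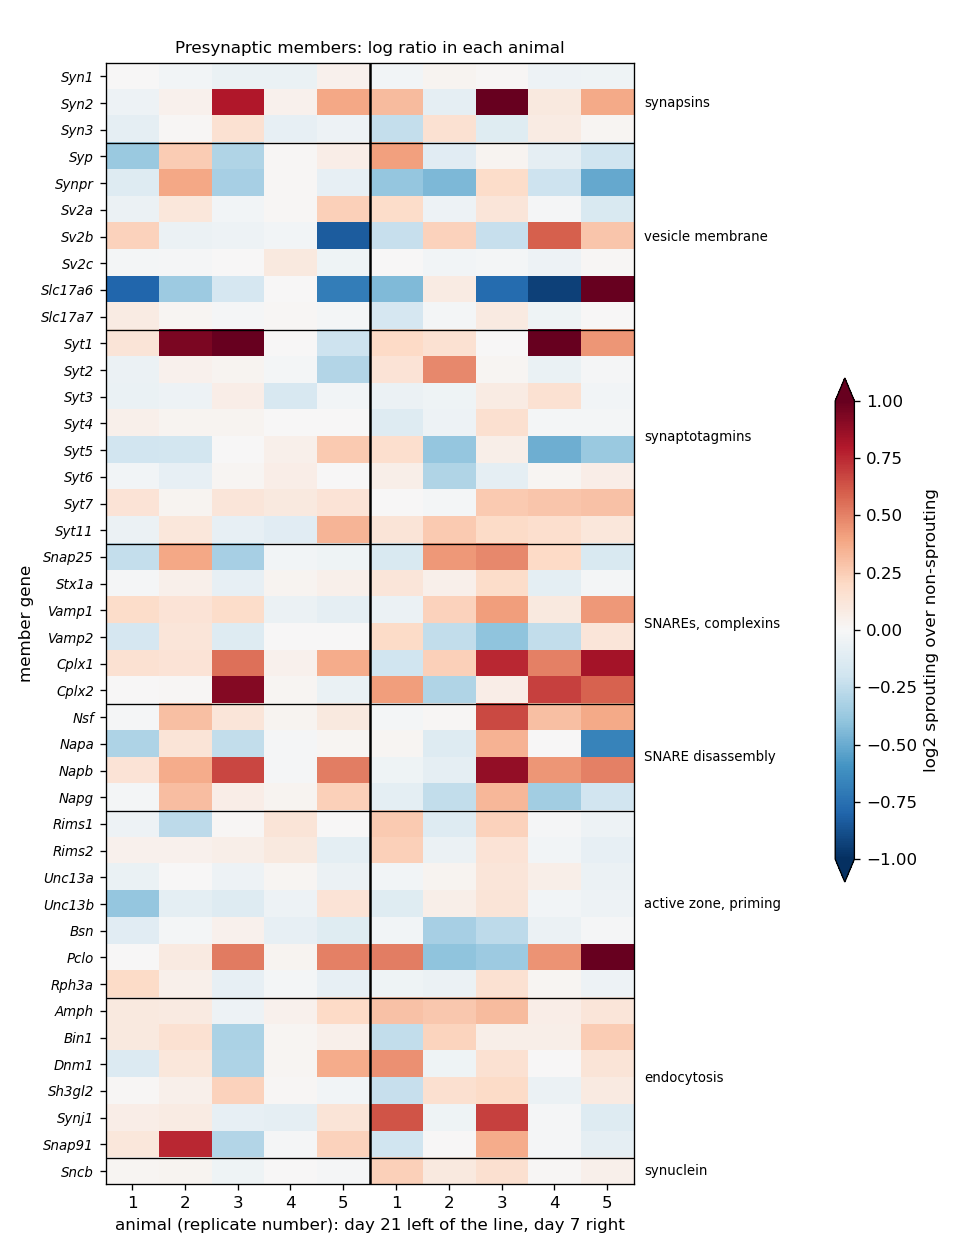
Log2 ratio of sprouting over non-sprouting signal of the 42 members (rows, grouped by role) in the 5 day 21 and the 5 day 7 animals (columns). Red is higher in sprouting neurons, blue lower, and colours end at 1 and -1. The column of day 7 replicate 3 is mostly red (34 of 42) and that of day 21 replicate 4 is pale throughout.

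The captured cells carried both neuronal and glial transcripts. Of the pan-neuronal markers, 8 of 9 were measured, and the neuronal nuclear gene Rbfox3 and the tubulin gene Tubb3 were well above background on every array in both cell types. The cortical vesicular glutamate transporter gene Slc17a7, itself a member, was well above background on 8 of 10 sprouting and 7 of 10 non-sprouting arrays at day 21, and on 5 of 10 of each at day 7. Interneuron genes such as Gad1 and Sst were also above background on every array. No defining marker of oligodendrocytes was at 0: Mbp and Mog were above background on all arrays. The oligodendrocyte list had a median ratio of 0.598, -0.301, -0.296, 0.014 and -0.143 in day 21 replicates 1 to 5, and of -0.340, 0.203, -0.156, 0.837 and 0.956 in day 7 replicates 1 to 5. At day 7, 12 of its 13 genes averaged higher in sprouting neurons, 2 of them at p under 0.05, against 3 of 13 above 0 at day 21. Its summed level at day 21 was 14516 to 53115 in sprouting and 16907 to 46526 in non-sprouting pools, and at day 7 it was 37376 to 81902 in sprouting and 40508 to 74602 in non-sprouting pools. The high day 7 animals for oligodendrocyte markers were replicates 4 and 5, where Nsf, Napb, Cplx1 and Syt7 were also high. In replicate 3, the highest animal for the median over members, the oligodendrocyte median was below 0. The astrocyte median reached 0.465 in day 7 replicate 5, while the remaining 4 animals of that day had -0.132 to 0.018. Whether these other cells contributed to the members' ratios was not tested.

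**Figure D3:**
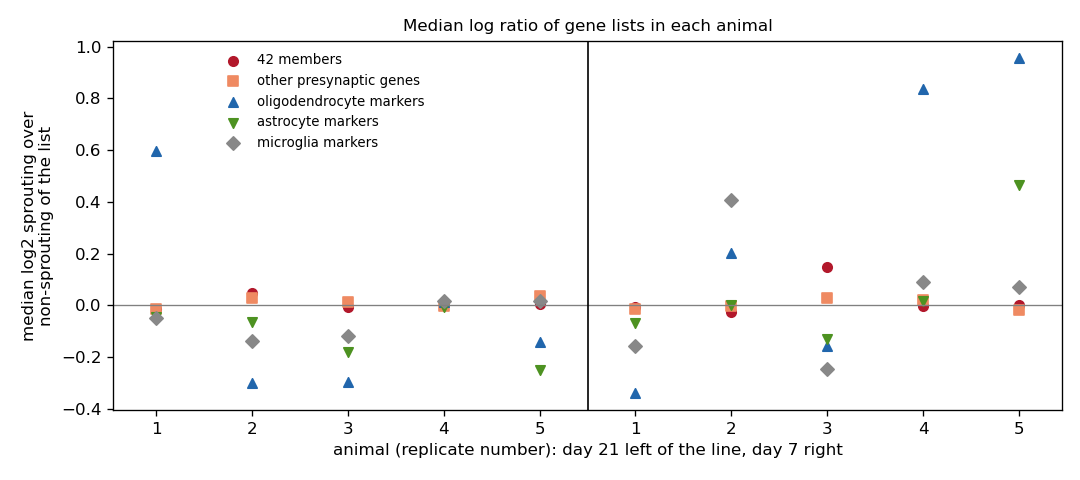
Median log2 ratio of sprouting over non-sprouting signal in each animal for the 42 members, other presynaptic genes and markers of 3 glial cell types, with day 21 left of the line and day 7 right of it. Oligodendrocyte markers run from -0.340 to 0.956, while the members stay between -0.027 and 0.147.

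Synapsins coat vesicles and hold them in reserve. Syn2 ratios were -0.05, 0.04, 0.80, 0.04 and 0.39 at day 21, against 0.32, -0.09, 1.04, 0.10 and 0.38 at day 7. Replicate 3 gave the highest value on either day, and the days overlapped. The day 7 mean was 0.35 ± 0.43 (SD, n = 5). Its limma p was 0.0488 (adjusted p = 0.527). It was no longer under 0.05 without background subtraction, with the processed signals, median centring, scaling between arrays or the authors' deposited ratios, or when any of 7 of the 10 animals was left out, in 4 cases a day 21 animal. Syn2 was named after its values were seen. Syn1 and Syn3 means lay between -0.03 and -0.01 at both days, and neither had a p under 0.05. Syn3 was dim. It was well above background on 2 of 10 sprouting and 4 of 10 non-sprouting arrays at day 21, and on 5 and 7 at day 7. Its ratio near 0 therefore does not show that it was unchanged.

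The vesicle membrane group has 7 members: synaptophysin, synaptoporin, the 3 SV2 glycoproteins and the glutamate transporter genes Slc17a6 and Slc17a7. Its median was -0.028 at day 21 and -0.018 at day 7. Synpr, whose product synaptoporin is a relative of synaptophysin found at a subset of synapses, was the one member of the group under p of 0.05. Its ratios were -0.13, 0.39, -0.33, 0.01 and -0.08 at day 21, against -0.39, -0.45, 0.18, -0.21 and -0.51 at day 7. Sprouting neurons were lower in 4 of 5 day 7 animals, and replicate 3 was the exception. The day 7 mean was -0.27 ± 0.28 (SD, n = 5), and the limma p was 0.0315 (adjusted p = 0.504). The mean was -0.25 without day 7 replicate 1 (p = 0.0849), -0.23 without replicate 2 (p = 0.0996), -0.39 without replicate 3 (p = 0.00306) and -0.21 without replicate 5 (p = 0.111). With median centring in place of loess it was -0.43 (p = 0.000463). Slc17a6 ran from -0.79 to 0.00 at day 21 and from -0.93 to 1.16 at day 7. It was at or below 0 in every day 21 animal to 2 decimals, but its mean of -0.40 had a limma p of 0.145 and an adjusted p of 0.865.

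Synaptotagmins are vesicle proteins with C2 domains, which bind calcium in some of them but not in all, and 8 synaptotagmins are members. Syt7, the slow, high-affinity calcium sensor, had ratios of 0.14, 0.03, 0.12, 0.10 and 0.14 at day 21, against 0.00, -0.02, 0.26, 0.28 and 0.29 at day 7. Every day 21 animal was above 0, while at day 7 the first 2 replicates were near 0 and the other 3 higher than any day 21 animal. Its mean was 0.11 ± 0.05 at day 21 and 0.16 ± 0.16 at day 7 (SD, n = 5 each). The mean of both days was 0.14 (limma SE 0.04, p = 0.0034, adjusted p = 0.394). Syt7 was dim, and was well above background on 9 of 10 sprouting and 8 of 10 non-sprouting arrays at day 21. The 2 arrays of an animal differed by a median of 0.22, more than that mean. In day 21 replicate 2 they read -0.21 and 0.28.

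Syt11, a synaptotagmin that does not bind calcium and restrains endocytosis, had ratios of -0.06, 0.11, -0.08, -0.11 and 0.34 at day 21, against 0.13, 0.26, 0.19, 0.17 and 0.11 at day 7. All day 7 animals were above 0 and close together, and the day 21 animals lay on both sides of 0. Its day 7 mean was 0.17 ± 0.06 (SD, n = 5), with the smallest spread of the members that reached p under 0.05 on that day. The limma p was 0.0157 (adjusted p = 0.477), and 0.0544 without day 7 replicate 2.

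Syt1, the fast calcium sensor of release, had the largest member ratio averaged over the days and also a wide spread. Its brightest probe gave 0.13, 0.94, 1.43, 0.00 and -0.21 at day 21, against 0.20, 0.15, 0.00, 1.14 and 0.44 at day 7. Replicates 2 and 3 of day 21 and replicate 4 of day 7 stood far above the rest. The mean of both days was 0.42 (limma SE 0.16, p = 0.027, adjusted p = 0.423). A probe described in the file as Syt1 splice variant 4 gave 0.17, 0.74, 0.94, 0.00 and 0.13 at day 21, against 0.08, 0.30, 0.57, 0.39 and 0.25 at day 7. That probe was at or above 0 in all 10 animals, with a limma p of 0.00269 in a fit of all probes. The third Syt1 probe averaged 0.09 at day 21 and 0.01 at day 7 (p = 0.516 for both days), so probes of this gene did not give the same size. Of the remaining synaptotagmins, Syt4 had day 21 ratios between 0.00 and 0.05 and a day 7 mean of -0.01. Syt2 averaged -0.06 at day 21 and 0.11 at day 7, and Syt6 averaged 0.00 and -0.05 on those days. None of the 3 had a ratio p under 0.05. Syt5 averaged -0.01 ± 0.19 at day 21 and -0.20 ± 0.29 at day 7 (SD, n = 5 each). Its day 7 limma p was 0.0666 (adjusted p = 0.544). Syt3 averaged -0.05 at day 21 and 0.02 at day 7, with neither p under 0.05.

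The SNARE and complexin group had the highest day 7 median of the groups with several members, 0.193, against 0.041 at day 21. Cplx1, whose product complexin 1 clamps and then promotes fusion of primed vesicles, was the member with the largest day 7 ratio. It gave 0.15, 0.14, 0.55, 0.04 and 0.37 at day 21, against -0.20, 0.24, 0.75, 0.50 and 0.83 at day 7. All 5 day 21 animals and 4 of 5 day 7 animals were above 0, with replicate 1 of day 7 below it. The mean was 0.25 ± 0.21 at day 21 and 0.42 ± 0.42 at day 7 (SD, n = 5 each). Over both days it was 0.34, a 1.26-fold difference (limma SE 0.09, p = 0.00455, adjusted p = 0.394). A fit of all 20 arrays took animal as a random block, which lets the repeat arrays of an animal add to the error estimate. There Cplx1 passed at day 7 (limma adjusted p = 0.0312) and over both days (adjusted p = 0.0161). That fit used 1 correlation between repeat arrays, 0.578, for all genes. It can give too small a p where repeats agree more closely. Cplx1 repeats differed by a median of 0.14, against the SD of 0.42 between day 7 animals. With 1 value per animal the day 7 limma adjusted p was 0.461.

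Vamp1, a vesicle SNARE, had ratios of 0.18, 0.14, 0.18, -0.06 and -0.09 at day 21, against -0.06, 0.23, 0.42, 0.10 and 0.43 at day 7. It was above 0 in 3 of 5 day 21 and in 4 of 5 day 7 animals. Its day 7 mean was 0.22 ± 0.21 (SD, n = 5), while its dimmer probe averaged -0.02 at day 21 and 0.08 at day 7. The limma p of the brighter probe at day 7 was 0.012 (adjusted p = 0.467), and it was 0.0518 without replicate 3 and 0.0526 without replicate 5. Replicate 5, at 0.43 on day 7, was read from 1 array, in 1 dye orientation, as its repeat gave no value. Vamp2, the main vesicle SNARE of the cortex, lay on the other side: its brightest probe averaged -0.04 at day 21 and -0.12 at day 7. The second Vamp2 probe averaged -0.18 and -0.14 on those days (limma p = 0.024 for both days), and a probe of the variant named 2B averaged 0.01 and -0.04. Of the partner SNAREs on the plasma membrane, Snap25 averaged -0.05 at day 21 and 0.16 at day 7, Stx1a 0.01 and 0.05, and neither had a p under 0.05. Snap25 spots were saturated on 2 sprouting and 3 non-sprouting arrays of day 7, so its day 7 ratio is not exact. Cplx2 averaged 0.18 at day 21 and 0.29 at day 7 (p = 0.303 and 0.104, limma), and its day 21 mean came from replicate 3 at 0.92, the others lying between -0.07 and 0.02.

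The 4 genes of SNARE disassembly had a median of 0.116 at day 21 and 0.090 at day 7. Napb encodes beta-SNAP, the brain form of the adaptor that brings NSF to the used SNARE complex. Its ratios were 0.14, 0.37, 0.67, -0.01 and 0.51 at day 21, against -0.04, -0.09, 0.88, 0.44 and 0.50 at day 7. Sprouting neurons were higher in 4 of 5 day 21 animals and in 3 of 5 day 7 animals. The mean was 0.34 ± 0.28 at day 21 and 0.34 ± 0.40 at day 7 (SD, n = 5 each). The limma p was 0.0352 at day 21 (adjusted p = 0.837) and 0.0344 at day 7 (adjusted p = 0.507). Over both days it was 0.34 (limma SE 0.10, p = 0.00613, adjusted p = 0.398). In the 20-array fit, with the limit given for Cplx1, its adjusted p was 0.0246. Napb was the only member under p of 0.05 at day 21; it was no longer so without day 21 replicate 2, 3 or 5, and its day 7 ratio was not without day 7 replicate 3 (0.20, p = 0.149), 4 (0.31, p = 0.085) or 5 (0.30, p = 0.0959), or with median centring (0.28, p = 0.0643).

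Nsf, the ATPase itself, gave ratios of -0.01, 0.30, 0.12, 0.03 and 0.10 at day 21, against -0.02, 0.01, 0.66, 0.30 and 0.38 at day 7. At day 7, replicates 1 and 2 were near 0 and replicates 3 to 5 at 0.30 or more. Its mean was 0.11 ± 0.12 at day 21 and 0.27 ± 0.28 at day 7 (SD, n = 5 each). The day 7 limma p was 0.0126 (adjusted p = 0.47). The other adaptors differed from beta-SNAP: Napa averaged -0.09 on both days, and Napg averaged 0.12 at day 21 and -0.11 at day 7 (limma p for the difference between days 0.0846, adjusted p = 0.94). Leaving out 1 animal at a time, the Napg difference was 0.34 without day 7 replicate 3 (p = 0.00206), the animal in which Napg stood at 0.33, and 0.17 to 0.27 without any of the other 9 (p between 0.0703 and 0.191).

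Nsf, Napb, Cplx1 and Vamp1 thus had their high day 7 ratios in the same animals, replicates 3 to 5 for the first 3 genes and replicates 3 and 5 for Vamp1. Oligodendrocyte markers had medians of -0.156, 0.837 and 0.956 in those 3 animals, and astrocyte markers -0.132, 0.018 and 0.465; their part in these ratios was not tested. The promoter sequences of these 4 genes are shown because they share high animals, in part only for Vamp1. That of Amph is shown because it had the smallest day 7 p. All 5 were picked after their values were seen. Syt7 was also highest in replicates 3 to 5 of day 7 and is not shown. Vamp1 stood at 0.23 in replicate 2, above its 0.10 in replicate 4. Some other members were highest elsewhere at day 7, such as Syt11 in replicate 2 and Sncb in replicate 1. The share of all genes with high ratios in replicates 3 to 5 is not given. RefSeq promoters of the GRCr8 build, 250 bases before to 50 bases after the annotated start, were matched by symbol for 36 of 42 members. The Amph window is chr17:50678452-50678751 on the minus strand, that of Nsf chr10:89357334-89357633 on the minus strand, that of Napb chr3:156632369-156632668 on the minus strand, that of Cplx1 chr14:1328823-1329122 on the plus strand and that of Vamp1 chr4:159698644-159698943 on the plus strand. Capitals mark matches, on either strand, to a GC box (GGGCGG), the cAMP response element (TGACGTCA), the left arm of the neuronal silencer RE1 (TTCAGCACC) or a TATA box (TATAAA).
Amph: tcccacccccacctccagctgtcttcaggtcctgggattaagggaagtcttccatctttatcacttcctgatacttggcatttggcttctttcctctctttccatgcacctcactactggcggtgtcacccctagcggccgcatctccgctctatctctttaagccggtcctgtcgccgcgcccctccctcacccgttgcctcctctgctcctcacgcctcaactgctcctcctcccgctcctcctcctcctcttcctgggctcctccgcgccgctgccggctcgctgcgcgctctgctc
Nsf: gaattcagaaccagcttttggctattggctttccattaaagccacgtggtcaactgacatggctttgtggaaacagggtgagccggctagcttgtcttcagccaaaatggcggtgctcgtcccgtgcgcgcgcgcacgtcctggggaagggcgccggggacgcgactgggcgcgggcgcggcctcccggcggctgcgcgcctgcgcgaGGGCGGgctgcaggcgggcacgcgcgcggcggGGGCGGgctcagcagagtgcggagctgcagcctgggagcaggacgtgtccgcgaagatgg
Napb: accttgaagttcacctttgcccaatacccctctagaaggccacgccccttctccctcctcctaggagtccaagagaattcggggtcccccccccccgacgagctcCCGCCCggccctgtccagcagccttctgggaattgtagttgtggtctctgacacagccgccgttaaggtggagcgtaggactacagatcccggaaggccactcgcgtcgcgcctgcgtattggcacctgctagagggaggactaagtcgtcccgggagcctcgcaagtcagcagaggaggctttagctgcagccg
Cplx1: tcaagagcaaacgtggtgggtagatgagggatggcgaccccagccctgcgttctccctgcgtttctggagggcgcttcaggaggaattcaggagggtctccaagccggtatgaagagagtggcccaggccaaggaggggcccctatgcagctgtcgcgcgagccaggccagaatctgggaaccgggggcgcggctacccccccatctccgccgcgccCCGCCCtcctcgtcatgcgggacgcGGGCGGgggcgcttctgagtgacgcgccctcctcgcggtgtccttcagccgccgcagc
Vamp1: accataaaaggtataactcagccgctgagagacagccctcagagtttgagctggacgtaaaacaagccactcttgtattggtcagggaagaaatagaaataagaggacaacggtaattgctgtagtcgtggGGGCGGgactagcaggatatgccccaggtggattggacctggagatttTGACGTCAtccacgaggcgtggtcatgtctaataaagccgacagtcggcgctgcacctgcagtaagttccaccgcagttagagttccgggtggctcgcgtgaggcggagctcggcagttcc
The GC box was found in Nsf, Napb, Cplx1 and Vamp1 and not in this window of Amph. Over the members it was in 26 of 36 promoters (72.2%), against 34.9% of all 27457 promoters of the same length. The cAMP response element was in 4 of 36 (11.1%, against 1.91% of all), those of Napa, Sh3gl2, Syn1 and Vamp1. The RE1 arm was in Unc13a alone (2.78%, against 0.379%), and the TATA box was in 0 of 36 (14.3% of all). These are letter matches only.

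Active zone and priming genes, 7 in all, had a median of -0.030 at day 21 and 0.024 at day 7. Bsn encodes Bassoon, a large scaffold of the active zone, and was the one member lower in sprouting neurons in every day 7 animal. Its ratios were -0.11, -0.02, 0.04, -0.08 and -0.12 at day 21, against -0.03, -0.33, -0.26, -0.06 and -0.01 at day 7. Replicate 1 of day 21 was read from 1 array. Replicates 2 and 3 of day 7 were lowest, and the days overlapped. The mean was -0.06 ± 0.07 at day 21 and -0.14 ± 0.15 at day 7 (SD, n = 5 each). Over both days it was -0.10 (limma SE 0.04, p = 0.0184, adjusted p = 0.411). At day 7 the limma p was 0.0192 (adjusted p = 0.477), 0.0848 without replicate 2 and 0.0768 without replicate 3. Pclo, the gene of Bassoon's relative Piccolo, ran from 0.00 to 0.52 at day 21 and from -0.40 to 1.17 at day 7, with a mean of 0.25 over both days (limma p = 0.104). The priming factors stayed near 0. Rims1 averaged -0.04 at day 21 and 0.06 at day 7, and Unc13b, the gene of Munc13-2, averaged -0.10 and 0.00, with no p under 0.05.

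Endocytosis genes were the one group of several members in which all 6 averaged above 0 at day 7, with a median of 0.103, against 0.038 at day 21. Amph encodes amphiphysin, which bends the membrane and recruits dynamin to it. Its ratios were 0.10, 0.09, -0.05, 0.04 and 0.20 at day 21, against 0.29, 0.27, 0.32, 0.07 and 0.12 at day 7. Every day 7 animal was above 0, and 3 of them were above every day 21 animal. The mean was 0.08 ± 0.09 at day 21 and 0.21 ± 0.11 at day 7 (SD, n = 5 each). The day 7 ratio was 1.16-fold (limma SE 0.05, p = 0.000785, adjusted p = 0.327), with the smallest p of any member on one day. Its difference between days was -0.14 (limma p = 0.058). Amph was well above background on 9 of 10 arrays of each cell type at day 7. At day 21 it was so on 8 sprouting and 7 non-sprouting arrays. The 2 arrays of an animal differed by a median of 0.19, close to the day 7 mean of 0.21. Synj1, whose product synaptojanin uncoats vesicles, averaged 0.02 at day 21 and 0.23 at day 7, where replicates 1 and 3 stood at 0.63 and 0.68 and the rest below 0. Its second probe averaged 0.05 and 0.19 (day 7 limma p = 0.0322). Bin1, Dnm1, Sh3gl2 and Snap91 had means between 0.00 and 0.16 on both days.

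Sncb encodes beta-synuclein, a soluble protein of presynaptic terminals. Its ratios were 0.02, 0.03, -0.04, 0.00 and -0.01 at day 21, against 0.24, 0.10, 0.16, 0.01 and 0.05 at day 7. All day 7 animals were above 0 and the day 21 animals lay within 0.04 of it, though replicate 4 of day 7 was within the day 21 range. The mean was 0.00 ± 0.03 at day 21 and 0.11 ± 0.09 at day 7 (SD, n = 5 each). The difference, -0.11, was the only one between days under p of 0.05 among the members (1 of 42, 2.38%, background 4.08%, of which 2.35% higher and 1.73% lower; limma p = 0.0407, adjusted p = 0.94). It stayed under 0.05 without day 7 replicate 4 or 5 but not without any one of the other 8 animals (p up to 0.091), and its p was 0.661 with the processed signals and 0.421 with median centring.

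**Figure D4:**
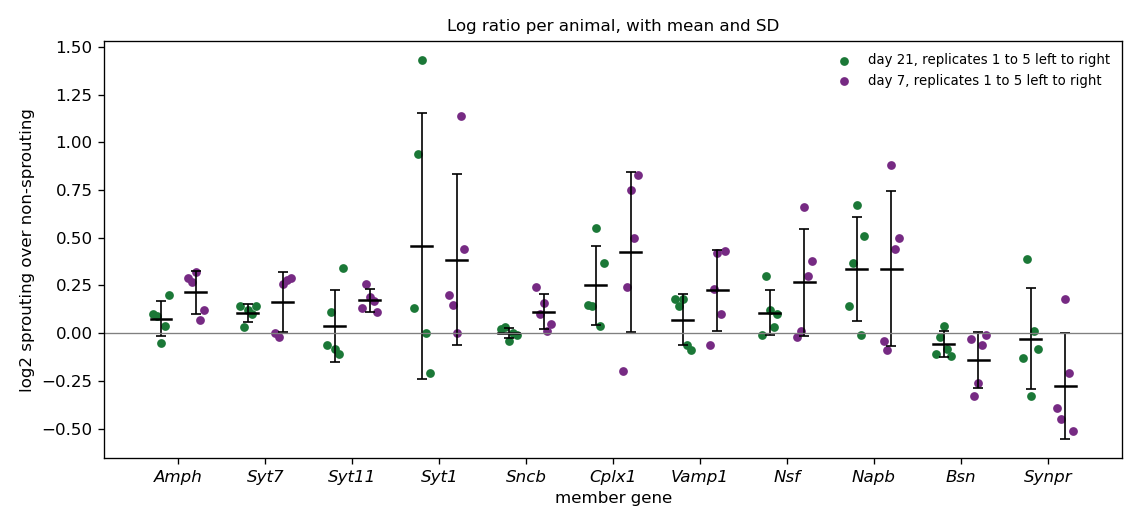
Log2 ratio of sprouting over non-sprouting signal per animal for 11 members, day 21 (green) left of day 7 (purple); points are animals, bars the mean and SD of 5. Amph, Syt11 and Sncb lie above 0 in all 5 day 7 animals and Syt7 and Cplx1 in all 5 day 21 animals with replicate 4 as averaged, while Bsn lies below 0 in all 5 day 7 animals.

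By direction alone, the members higher in every animal of a day were Syt7, Cplx1 and Syt4 at day 21 (3 of 42, 7.14%, background 4.28%) and Amph, Syt11, Sncb and Syt1 at day 7 (4 of 42, 9.52%, background 3.51%). None was lower in every day 21 animal (background 4.08%), and Bsn was lower in every day 7 animal (2.38%, background 5.09%). Over both days, 9 of 42 members were higher in at least 8 of 10 animals (21.4%, background 7.85%) and 1 was lower in as many (2.38%, background 9.31%). Values of Syt4 and Syt1 that print as 0.00 are included with their sign. The day 21 counts take replicate 4 as averaged, although its direction is not settled; the 2 arrays of Syt4 there read 0.15 and -0.14. Over the other 4 animals of day 21, Syt4, Syt7, Cplx1 and Napb were higher in all (9.52%, background 7.54%) and Slc17a6 and Unc13a lower in all (4.76%, background 7.4%). With the first array of replicate 4 turned only Syt7 was higher in all 5 (2.38%, background 3.98%), and with the second turned Syt4, Cplx1 and Napb were (7.14%, background 3.57%). Lower in all 5 were then Slc17a6 with the first array turned (2.38%, background 3.96%) and Unc13a with the second (2.38%, background 3.44%).

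Each dye's signal was also read as a level, to compare the days within a cell type. No gene passed the adjusted threshold in either cell type. At an unadjusted p under 0.05 there were 4 of 42 members in sprouting neurons (9.52%, background 8.92%) and 2 of 42 in non-sprouting neurons (4.76%, background 9.12%). They were 2 higher and 2 lower at day 21 in sprouting neurons (backgrounds 2.38% and 6.53%) and 2 higher in non-sprouting neurons (background 2.36%, and 6.75% lower). For both directions together the members' share was near or below that of all genes. For higher calls alone, 2 of 42 (4.76%) in each cell type, it was above the background. Of the 42 members, Nsf was the only one whose days did not overlap, and this held in both cell types. Its log2 level in sprouting neurons was 9.56, 8.70, 8.56, 8.68 and 8.62 at day 21, against 7.73, 7.71, 8.12, 8.38 and 7.75 at day 7. In non-sprouting neurons it was 9.56, 8.40, 8.44, 8.65 and 8.53 at day 21, against 7.75, 7.71, 7.46, 8.08 and 7.37 at day 7. All day 21 animals lay above all day 7 animals in both cell types. In each cell type alone, this held for 0.212% of all genes in sprouting and 0.163% in non-sprouting neurons. The shares of genes with day 21 below day 7, or with both cell types together, are not given. The difference was 0.89 in sprouting neurons (limma SE 0.21, 1.85-fold, p = 0.00154, adjusted p = 0.372) and 1.05 in non-sprouting neurons (limma SE 0.23, 2.06-fold, p = 0.000799, adjusted p = 0.399). Arrays scanned on the same day gave differences of 0.94, 0.73 and 0.25 in sprouting and 1.65, 1.01 and 0.45 in non-sprouting neurons on the 3 days that held both, each from 1 or 2 animals of day 21 and 1 or 2 of day 7; on the first of these days, day 7 was 1 array of 1 animal, in 1 dye orientation. Without normalization between arrays the differences were 0.79 (p = 0.0703) and 0.95 (p = 0.0473).

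Cplx2 levels in sprouting neurons were 9.53, 9.02, 9.41, 9.42 and 9.83 at day 21, against 8.48, 8.70, 8.97, 9.29 and 9.09 at day 7. Only replicate 2 of day 21 lay within the day 7 range. The difference was 0.54 in sprouting (limma SE 0.18, p = 0.0145, adjusted p = 0.501) and 0.65 in non-sprouting neurons (limma SE 0.26, p = 0.0307, adjusted p = 0.528). Stx1a differed by 0.35 and 0.39 in sprouting and non-sprouting neurons, with neither p under 0.05.

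Rims1 went the other way in sprouting neurons, at 6.99, 6.71, 6.93, 6.95 and 6.77 at day 21, against 7.27, 6.94, 7.35, 7.32 and 6.97 at day 7. The difference was -0.30 (limma SE 0.12, p = 0.0325, adjusted p = 0.546), and it was -0.20 in non-sprouting neurons (p = 0.0758). Snap25 was -0.59 in sprouting neurons (limma SE 0.25, p = 0.0372, adjusted p = 0.549). Its lowest animal was replicate 2 of day 21 at 13.83. Its spots were saturated on 0 of 10 sprouting arrays at day 21 and 2 of 10 at day 7, so the size of the difference is not exact. Its limma p was not under 0.05 with quantile normalization of single channels. The same held without day 7 replicate 2, 3 or 4, or without day 21 replicate 1, 2 or 3. Syt6 differed by -0.26 and -0.30 in sprouting and non-sprouting neurons, with p of 0.128 and 0.0908. Over the same contrast the oligodendrocyte markers were lower at day 21 in sprouting neurons for 12 of 13 genes, 8 of them at p under 0.05, and the astrocyte markers for 9 of 10, 5 of them at that p. In non-sprouting neurons 10 of 13 oligodendrocyte markers were lower, 1 of them at that p, and 9 of 10 astrocyte markers were lower, 0 of them at that p. All genes also leaned lower at day 21: 41.4% were higher in sprouting and 40.9% in non-sprouting neurons. At that p, 6.53% and 6.75% of all genes were lower. The part of oligodendrocytes and astrocytes in the level differences was not tested.

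**Figure D5:**
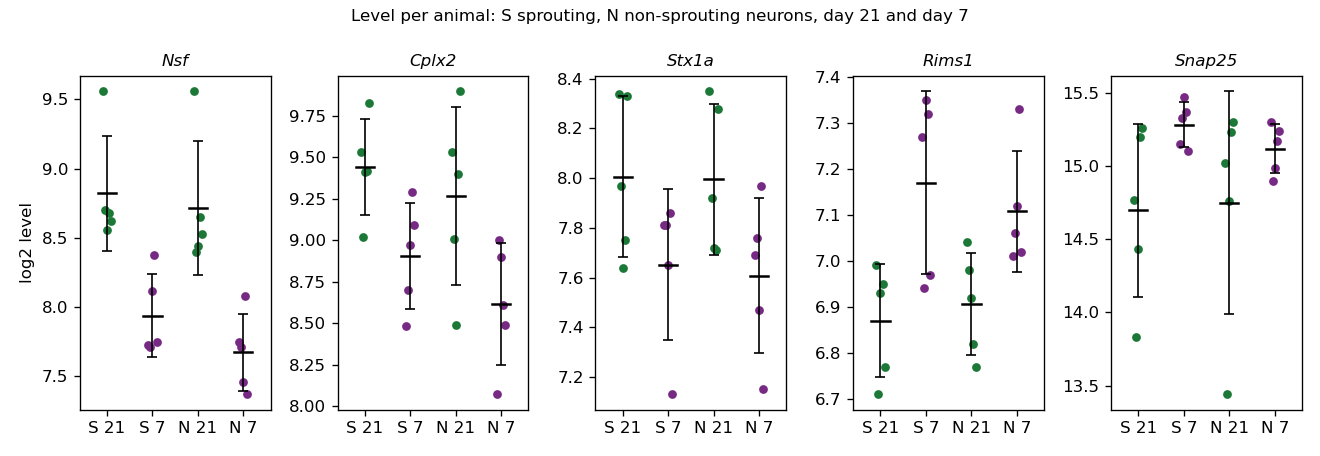
Log2 level per animal of 5 members in sprouting (S) and non-sprouting (N) neurons, day 21 (green) left of day 7 (purple), with the mean and SD of 5 animals; each panel has its own scale. The Nsf points of day 21 lie above those of day 7 in both cell types, and Rims1 and Snap25 means are lower at day 21.

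A wider list of 92 presynaptic genes, of which 88 were measured, gives the surroundings of the 42. None of the 88 passed the adjusted threshold. At an unadjusted p under 0.05, 1 of 88 was higher and 0 lower at day 21 (1.14%, against 5.85% of all genes), and 9 were higher and 6 lower at day 7 (17%, against 9.48% of all genes). Their median ratio was 0.008 at day 21 and 0.021 at day 7. Pacsin1, the gene of an endocytic partner of dynamin, was the one at day 21, with a mean of 0.25 ± 0.24, and it averaged 0.32 ± 0.26 at day 7 (SD, n = 5 each). Its limma p for both days was 0.0024 (adjusted p = 0.394). Syt12 averaged 0.32 ± 0.34 at day 21 and 0.44 ± 0.39 at day 7 (SD, n = 5 each). The active zone linker gene Rimbp2 averaged 0.18 and 0.36, and the vesicle SNARE gene Vamp7 0.12 and 0.25, on those days. Small neuronal marker lists had their own shares at p under 0.05. At day 7 these were 2 of 8 pan-neuronal (25%), 2 of 12 GABAergic (16.7%) and 0 of 7 glutamatergic genes. Over both days they were 1 of 8 (12.5%), 4 of 12 (33.3%) and 0 of 7, against 11% of all genes. A share above that of all genes was thus not particular to the 42.

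Cacna1b, the pore subunit gene of N-type calcium channels that admit calcium for release, was below 0 in every day 7 animal, between -0.72 and -0.21. Its mean was 0.11 ± 0.27 at day 21 and -0.43 ± 0.21 at day 7 (SD, n = 5 each). The difference was 0.54 (limma p = 0.00305, adjusted p = 0.94). Stxbp6, whose product amisyn binds SNAREs, was also below 0 in all 5 animals of day 7, and its mean was 0.00 at day 21 and -0.36 at day 7. Syt17 averaged 0.01 at day 21 and -0.65 at day 7 with a wide spread, from -1.33 to 0.21.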

How the data were processed

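Agilent Feature Extraction (version 9.1.3.1, per the file headers and the submitters' processing notes) made the scanner files. They hold each spot's mean and background intensity in both dyes as deposited by the authors. The authors' deposited table of log2 ratios per spot, with scale and direction checked against the scanner values, served as an alternative; its 20 ratio columns each correlated best with their own array, and another 20 columns, of mean log intensity, went unused.

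From the intensities, limma 3.58.1 (R 4.3.3) applied normexp background correction (offset 50) and loess within each of 20 arrays, with control spots at weight 0 and outlier spots left out. Signs were set so that sprouting stands over non-sprouting, and spots were averaged per probe, and an animal's 2 dye-exchanged arrays were averaged, giving 1 value for each of 10 animals. Probes that cleared background on a fraction of 0.5 or more of some cell type's arrays on some day, with values in 3 or more animals of each day, were kept; the brightest probe stood for a gene (37345 of 41012 probes, 33091 genes). Array names were matched to current symbols by accession for 10615 probes, by symbol for 4648 and by synonym for 3886; 21813 kept the file's name and the 50 member probes were taken by the member names. Amph was found by accession and Napb by gene ID.

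A mean per day was fitted with lmFit and eBayes (2.24 prior degrees of freedom), for each day, their mean and their difference, with Benjamini-Hochberg adjustment over all genes; channel levels were read after Aquantile and compared between days. The number of animals limits the precision. All p-values are two-sided and measure the spread between animals. The members, role lists and other lists were chosen with earlier results of these data known. Individually described members were the 6 of smallest p per contrast and those with one sign in all animals of a day. A further rule took members whose probes disagreed in sign with 1 at p under 0.05, and none did. Syn2, Slc17a6, Vamp2, Napa, Pclo, Synj1, Syt3 and Syt5 were described after their values were seen. Of other presynaptic genes, the 6 of smallest p per ratio contrast. The fits were tested on simulated data. Replicate numbers did not pair the animals: same-numbered animals of the separate cohorts correlated at -0.19 to 0.00 in their deviations from the day means. Days shared 3 of 5 scan days; day 7 replicate 3 was scanned on 2 of them and enters the scan day block by its first array. Alternatives covered background, normalization, filters, probe choice, the array-level fit, scan day, the replicate block and leaving out each animal, and, chosen after the data were seen, turning either array of day 21 replicate 4.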

Additional observations from a re-analysis of the deposited data

Results flagged for a closer look

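With 86 groups of 5 animals examined (42 members and the median over members, on 2 days), chance alone sets about 1 in 20 apart by the rule used, in which the gap of the highest or lowest animal to the next exceeds 0.71 of the range. A total of 5 did so, 4 of them at day 21. In day 21 replicate 3, Cplx2 stood at 0.92 (others -0.07 to 0.02), Bin1 at -0.32 (others 0.02 to 0.15) and Sh3gl2 at 0.23 (others -0.03 to 0.05). In day 21 replicate 5, Sv2b stood at -0.83 (others -0.06 to 0.23). In day 7 replicate 3 the median over members was 0.147 (others -0.027 to 0.003). No member was higher in all animals of one day and lower in all of the other.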

How the results depend on the processing

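All 11 members with a p under 0.05 at day 7, and all 11 over both days, kept their sign in every alternative in which they were measured. No member passed the adjusted threshold in any alternative but the 20-array fit, where Cplx1 passed at day 7 and Cplx1 and Napb over both days; that fit called 403 genes at day 7, 509 over both days and 4 for the difference, and 5 members at p under 0.05 at day 21 (11.9%, against 7.26% of all genes). The 1 gene at day 7 became 0 with the processed signals, median centring, scaling between arrays, probes well above background on all arrays, or the mean of all probes. With median centring, 23 members were above 0 at day 7, 6 higher and 5 lower at p under 0.05, and 21.4% of all genes at that p were higher, against 47.3% with loess.

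Counts of members at p under 0.05 moved as follows, with the share of all genes at that p in the same setting. At day 21 they were 2 (4.76%) with the processed signals, median centring, scaling, the mean of probes, an intensity trend or scan day as a block (all genes 5.11% to 7.35%). At day 7 they were 7 of the 21 measured with the stricter background filter (33.3%, all genes 10.7%). The day 7 median over members, 0.035 in the report, was 0.111 with that filter, 0.085 with the processed signals and 0.008 with median centring. Over both days they were 7 with median centring (16.7%, all genes 11.4%) and 6 of 21 with the stricter filter (28.6%, all genes 11.8%). For the difference between days, where the 1 member was lower at day 21 (Sncb), they were 3 with median centring (7.14%, all genes 3.2%), all higher and without Sncb; they were 0 with the stricter filter (all genes 3.24%) or the trend (4.2%), and the median was -0.115 with the processed signals. For levels in sprouting neurons they were 2 of 21 with the stricter filter (9.52%, all genes 11.6%) and 1 without normalization between arrays (2.38%, all genes 3.54%, median -0.105). In non-sprouting neurons they were 1 of 21 (4.76%, all genes 11%) and 1 (2.38%, all genes 3.35%, median -0.085). With the replicate number as a block, the difference between days had 0 members at that p (all genes 3.25%), and levels had 5 in sprouting (11.9%, all genes 11.4%) and 2 in non-sprouting neurons (4.76%, all genes 12.3%); the numbers share no animal. With the first array of day 21 replicate 4 turned, chosen after the data were seen, 1 gene passed the adjusted threshold over both days, not a member.

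Leaving out each animal in turn gave 0 to 1 genes at day 7, 0 to 3 members at day 21, 9 to 12 at day 7, 9 to 12 over both days, 0 to 2 for the difference, 2 to 7 for sprouting and 1 to 5 for non-sprouting levels. Shares of all genes at p under 0.05 ran in the same fits from 3.35% to 6.56% at day 21, 7.73% to 12.4% at day 7, 8.52% to 13.2% over both days, 3.51% to 5.98% for the difference, 5.62% to 18.1% for sprouting and 5.96% to 19.2% for non-sprouting levels. The 2 members for the difference were higher at day 21 without day 7 replicate 3 and lower in the other such fits. The 7 and the 5 came without day 7 replicate 5, where they were 16.7% and 11.9% of members, against 18.1% and 19.2% of all genes. Medians over members ran from 0.001 to 0.020 at day 21, 0.009 to 0.061 at day 7, 0.014 to 0.038 over both days, -0.064 to -0.026 for the difference, -0.059 to 0.107 for sprouting and 0.010 to 0.112 for non-sprouting levels. Signals near background limit the dimmer members: 21 of 42 were well above it on every array.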
